A study of Mus musculus with 8 samples.

Results

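Crystallins are the proteins that fill the fiber cells of the ocular lens and give it transparency. The rows of 9 crystallin genes were taken by name from a table of 18058 genes measured in mouse retinae, namely Cryaa, Cryab, Cryba1, Cryba2, Cryba4, Crybb1, Crybb2, Crybb3 and Crygs. All 9 were present and all 9 passed the filter for testing, a mean of at least 10 normalized counts over the libraries, along with 17636 genes in total. The retinae came from adult WT mice of the inbred strain 129S2/SvPasCrl and from quadruple KO mice, which lack Bcan, Ncan, Tnc and Tnr, 4 genes of the extracellular matrix, and were bred by crossing single KO lines. NGS was performed on total RNA of 4 libraries per genotype, named A to D within each genotype. Both sexes were used, retinae were pooled before RNA extraction, and the sex and exact age behind each library are not stated in the sources used here. The values are normalized counts, which are estimated read counts divided by the normalization factors of the authors' analysis, so they compare 1 gene between libraries. P-values reported here measure the spread between these libraries, which may in part be technical.

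The alpha-crystallins Cryaa and Cryab belong to the small heat shock proteins and act as chaperones that keep other proteins in solution. Cryaa is largely a lens protein, whereas Cryab is also made in muscle, heart, brain glia and retina and is induced by stress. The beta- and gamma-crystallins form a separate family of structural proteins built from Greek key motifs. Beta-crystallins are divided into acidic members (Cryba1, Cryba2, Cryba4) and basic members (Crybb1, Crybb2, Crybb3), and Crygs is the gamma-crystallin that is made in the adult lens cortex. Transcripts of this family have also been described in neural retina, and the lens lies next to the retina during dissection, so both tissues are possible sources of such transcripts in a retina library. In bulk RNA, more cells of a type and more RNA per cell cannot be told apart.

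In GRCm39, the genome build named by the submitters, the 9 genes lay on 6 chromosomes (positions and strands from GENCODE vM39). Cryaa is on chromosome 17 from 31896781 to 31900707, Cryab on chromosome 9 from 50651859 to 50668567, Cryba1 on chromosome 11 from 77609441 to 77616120, Cryba2 on chromosome 1 from 74929093 to 74932302 and Crygs on chromosome 16 from 22623953 to 22630327. The other 4 genes share chromosome 5. There, Cryba4 (112394359 to 112402226, minus strand) and Crybb1 (112400811 to 112417965, plus strand) overlap by 1416 bp, and Crybb2 (113206124 to 113217983) and Crybb3 (113223705 to 113229450), both on the minus strand, lie 5721 bp apart. Cryab overlaps Hspb2 and 2310030G06Rik on the opposite strand. The library kit keeps the strand, but the counting setting is not given in the sources used here, so reads in these overlaps are uncertain.

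Because 8 of the 9 genes varied together between libraries, as described below, the sequences before their start sites are shown for 4 members, those with at least 150 bases free of annotated exons at the far end of a 200-base window. RefSeq promoter windows, made on GRCm38.p6, were given for 8 of the 9 members, with Cryab the exception, and the stretches printed here matched GRCm39 at a single place each. The capitals mark TGCTGA on either strand (written TCAGCA on the reverse), the half-site bound by large Maf factors, and TATAAA, the TATA box. Each line gives up to 200 bases that end at or next to the start site, 5′ to 3′ on the strand of the gene.
Cryba1, chr11:77616121-77616319, minus strand: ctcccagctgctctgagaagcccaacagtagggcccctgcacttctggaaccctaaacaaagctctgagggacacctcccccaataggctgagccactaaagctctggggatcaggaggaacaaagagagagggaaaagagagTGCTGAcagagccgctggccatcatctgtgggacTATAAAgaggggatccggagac
Cryba2, chr1:74932303-74932502, minus strand: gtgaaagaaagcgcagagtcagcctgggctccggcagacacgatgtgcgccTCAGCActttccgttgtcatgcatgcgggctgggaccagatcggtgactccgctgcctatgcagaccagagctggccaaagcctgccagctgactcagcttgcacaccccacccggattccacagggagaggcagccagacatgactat
Crybb2, chr5:113217984-113218183, minus strand: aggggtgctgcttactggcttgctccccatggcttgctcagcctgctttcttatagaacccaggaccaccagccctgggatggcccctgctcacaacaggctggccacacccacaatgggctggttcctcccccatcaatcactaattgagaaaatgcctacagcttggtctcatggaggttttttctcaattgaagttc
Crybb3, chr5:113229451-113229650, minus strand: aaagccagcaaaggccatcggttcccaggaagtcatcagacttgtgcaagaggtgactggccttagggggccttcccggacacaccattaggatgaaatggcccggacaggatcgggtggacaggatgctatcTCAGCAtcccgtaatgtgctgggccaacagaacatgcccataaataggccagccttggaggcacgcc

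In windows of 250 bases before the start site, TGCTGA was found on either strand in 7 of the 8 members with a window, all but Crybb2, compared with 16.1% of 32841 RefSeq promoter windows of the same length. The matches began 57 bases before the start in Cryba1, 67 in Crybb3, 84 in Crybb1, 108 in Cryaa, 149 in Cryba2 and 200 in Crygs. Cryba4 had 3 matches, at 77, 135 and 182 bases before the start. TATAAA was found in 3 of the 8 members (Cryba1, Crybb1 and Crygs), compared with 12.4% of all windows, and ATTGTT, the core bound by SOX factors, in Crybb1 and Crygs, compared with 9.43%. These matches are letters in a window and were not tested as binding sites. In Cryaa, Cryba4, Crybb1 and Crygs, GENCODE annotates exons of the same gene within 200 bases before the RefSeq start. Counted from the far end of that window, 76 bases were free of exons in Cryaa and 33 in Crygs. In Cryba4 and Crybb1 it was 0, so matches in these genes may lie in annotated exons.

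Before the crystallins were compared, the libraries were checked. Estimated from the low values, WT libraries held 23.9 M to 40.4 M reads and quadruple KO libraries 38.9 M to 52.4 M. WT B and WT C stood apart from the other 6 libraries. In these 2 the 13 mitochondrially encoded mRNAs took 0.341% to 0.402% of the normalized counts against 1.28% to 1.64% elsewhere. A set of noncoding RNA genes took 14.8% to 19.3% against 6.82% to 8.69%. This set was picked by gene name and was not limited to RNA of the signal recognition particle. Of the targeted genes, Ncan lay at 569 to 789 normalized counts in WT and at 0 to 0.853 in the quadruple KO. Bcan had 197 to 327 in WT and 11.5 to 22.1 in the quadruple KO, and Tnr had 5578 to 6317 and 2374 to 2580. The total count of Tnc overlapped between the genotypes (881 to 1592 and 1024 to 1249), and the gene total does not show which exons the reads came from. The pair correlations, the range of the summed level, the spread and the genotype difference are therefore also given without WT B and WT C. The 8 rod markers, among them rhodopsin, were present in every library, with a sum of 1351320 to 1907857 normalized counts.

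The 9 genes fell into a group of 8 that varied widely between libraries and a single gene, Cryab, that did not. The 8 genes had their highest value in WT B (6 genes) or KO C (2 genes) and their lowest value in KO B (8 of 8 genes). Their summed normalized count was 3865 in WT B and 2131 in KO C, followed by 984 in WT C, 394 in KO A, 291 in WT D, 239 in KO D, 94.4 in WT A and 41.7 in KO B. The sum thus covered a 40.9-fold range within WT and a 51.2-fold range within the quadruple KO. Between WT A and WT D alone it differed by 3.08-fold. Each genotype held both high and low libraries, and the genotypes overlapped in all 9 genes.

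**Figure D1:**
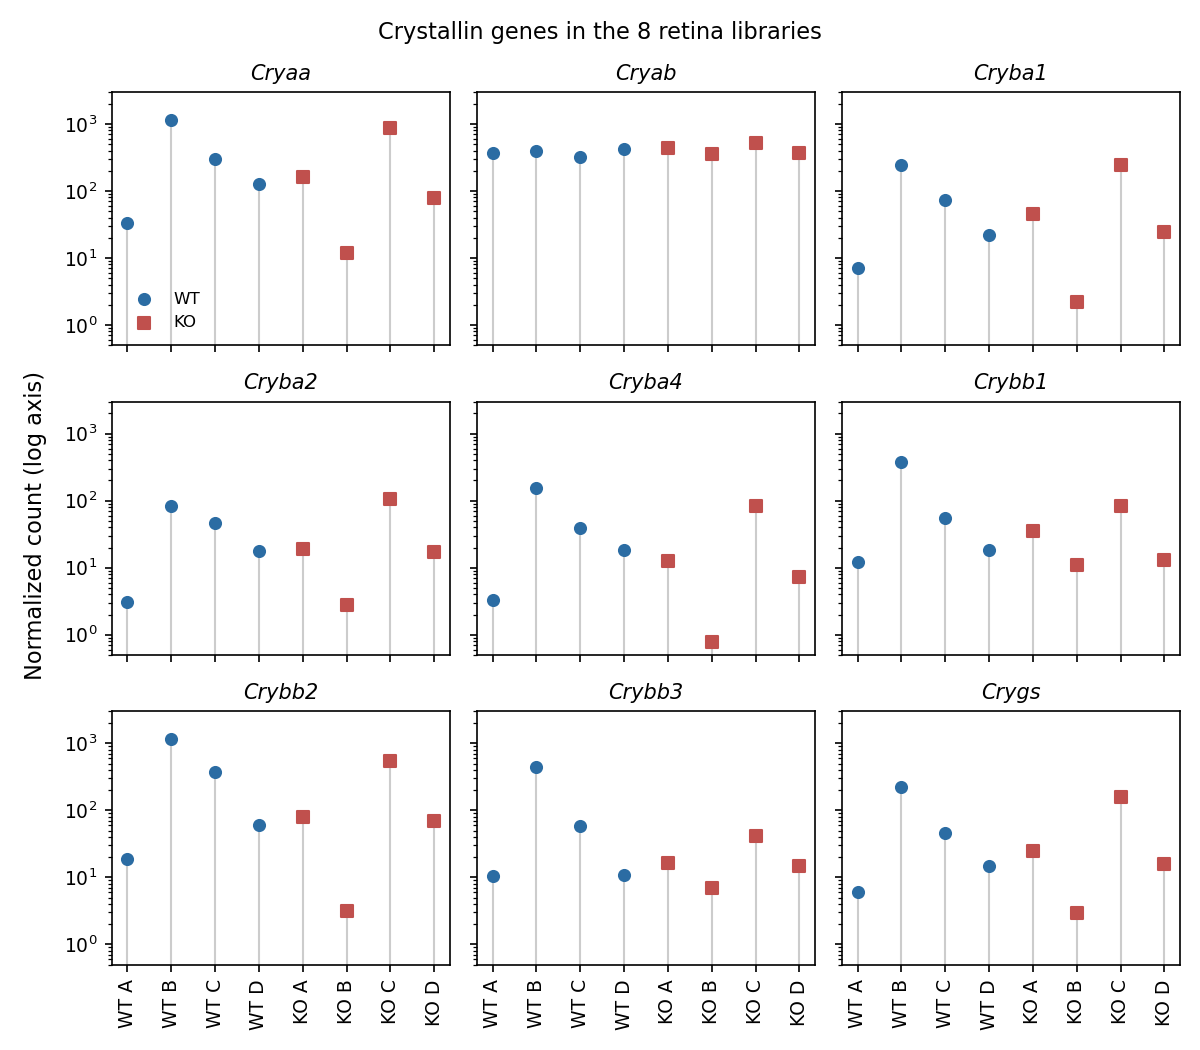
Normalized count (log axis) of each of the 9 crystallin genes in the 4 WT libraries (circles) and the 4 quadruple KO libraries (squares), 1 panel per gene and 1 point per library. Cryab is level between 327 and 514, while the other 8 genes have their highest value in WT B (6 genes) or KO C (2 genes) and their lowest in KO B.

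Among the alpha-crystallins, Cryaa (ENSMUSG00000024041.11) had 33.5, 1154, 297 and 129 normalized counts in WT A to D and 162, 11.7, 865 and 77.3 in KO A to D. WT B and KO C were the high libraries and KO B was the lowest, with WT B 98.4-fold above KO B (95% interval 59.9 to 172 from the estimated reads, an interval that covers counting error only, here and below). Cryab (ENSMUSG00000032060.11) had 375, 388, 327 and 420 normalized counts in WT A to D and 438, 362, 514 and 372 in KO A to D. Its highest library, KO C, exceeded its lowest, WT C, by 1.57-fold (95% interval 1.35 to 1.84). KO B, in which Cryaa was at about 16 estimated reads (15.9), held 492 estimated reads of Cryab, and the 4 values of each genotype overlapped for both genes.

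The acidic beta-crystallins followed nearly the same order of libraries as Cryaa. Cryba1 (ENSMUSG00000000724.11) had 7.13, 247, 72.9 and 22.0 normalized counts in WT A to D and 44.7, 2.22, 248 and 24.3 in KO A to D. For this gene WT B and KO C were level, and the 2.22 in KO B rested on about 3 estimated reads (3.02), so that the 112-fold range had a 95% interval of 38.1 to 547. Cryba2 (ENSMUSG00000006546.4) had 3.08, 83.4, 46.9 and 17.6 normalized counts in WT A to D and 19.1, 2.78, 106 and 17.0 in KO A to D. It was the member with the narrowest range after Cryab and Crybb1, 38.0-fold (95% interval 13.7 to 134), and KO C was its highest library. Cryba4 (ENSMUSG00000066975.13) had 3.24, 154, 39.6 and 18.6 normalized counts in WT A to D and 12.5, 0.784, 83.8 and 7.23 in KO A to D. The value in KO B corresponded to about 1 estimated read (1.07), and the ratio of WT B to KO B was 197 with a 95% interval of 36.6 to 8353.

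The basic beta-crystallins differed from each other in their ranges. Crybb2 (ENSMUSG00000042240.15), an abundant protein of the adult lens, had 18.6, 1170, 368 and 59.8 normalized counts in WT A to D and 79.9, 3.16, 546 and 69.4 in KO A to D. Its highest value was in WT B, which exceeded KO B by 370-fold (95% interval 154 to 1462). Crybb1 (ENSMUSG00000029343.18) had 12.2, 380, 55.5 and 18.4 normalized counts in WT A to D and 35.1, 11.05, 83.3 and 13.02 in KO A to D. Crybb3 (ENSMUSG00000029352.15) had 10.6, 450, 59.2 and 11.01 normalized counts in WT A to D and 16.5, 6.98, 41.4 and 14.7 in KO A to D. Crybb1 and Crybb3 stood out by a single library, since WT B exceeded every other library by at least 4.56-fold for Crybb1 and 7.60-fold for Crybb3. Their quadruple KO libraries spanned 7.54-fold and 5.93-fold, compared with 38.0-fold to 173-fold for the other 6 varying genes.

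Crygs (ENSMUSG00000033501.6) was the gamma-crystallin among the members. It had 6.11, 226, 45.4 and 14.6 normalized counts in WT A to D and 24.9, 2.95, 158 and 15.8 in KO A to D. WT B exceeded KO B, which held about 4 estimated reads (4.01), by 76.6-fold (95% interval 29.3 to 287). As in Cryaa, WT B and KO C were the high libraries and WT A and KO B the low ones.

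To rank the genes by level, normalized counts were divided by the length of the canonical GENCODE transcript in kb. On this scale the median over the 8 libraries was highest for Cryab, with 226 normalized counts per kb, followed by Cryaa with 116 and Crybb2 with 102. Cryba1 followed with 43.7, Cryba2 with 25.5, Crygs with 23.3, Cryba4 with 19.2, Crybb1 with 19.2 and Crybb3 with 18.9 per kb. The ranges of all neighbours in this order overlapped. The order also depended on the library, because Cryab led in libraries with low values of the others, whereas in WT B Crybb2 reached 1600 and Cryaa 920 per kb compared with at most 304 for Cryab in any library.

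The order of the libraries was nearly the same for the 8 varying genes. KO B ranked lowest and WT A next to lowest in 8 of 8 genes, WT B ranked highest or next to highest in 8 of 8, WT C was at position 3 in 7 of 8 and KO A at position 4 in 7 of 8. Accordingly, the log2 normalized counts of the 28 pairs among these genes correlated over the 8 libraries with Pearson's r of 0.78 to 0.99 (median 0.96) and Spearman's rho of at least 0.90 (median 0.98). Exact permutation of the pairings, two-sided and adjusted by Benjamini-Hochberg over all 36 pairs of members, gave p = 0.0003 to 0.017 for r and p = 0.00089 to 0.0059 for rho. The closest pair was Cryaa and Cryba1 (r = 0.99), and the most distant was Cryba2 and Crybb3 (r = 0.78). The co-variation was known from earlier results of these data when the pairs were chosen, so these p-values are no independent support for it.

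**Figure D2:**
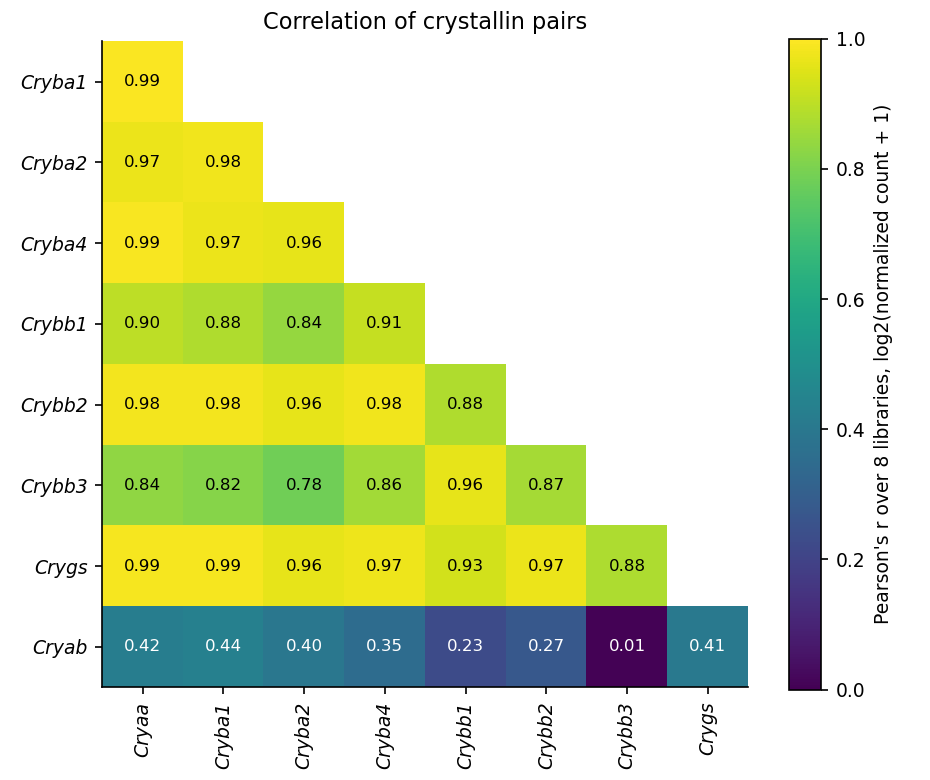
Pearson's r of log2(normalized count + 1) over the 8 libraries for each of the 36 pairs of crystallin genes, as numbers and colors from 0 to 1. The 28 pairs without Cryab lie between 0.78 and 0.99, and the 8 pairs with Cryab, in the bottom row, between 0.01 and 0.44.

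The 8 pairs with Cryab had r of 0.01 to 0.44 and rho of 0.19 to 0.50, and none passed the threshold (exact permutation, lowest adjusted p = 0.35 for r). Leaving out the 2 libraries farthest from the median of the first gene of a pair kept r at 0.80 to 0.99 in the 28 pairs, of which 24 still passed, and at 0.06 to 0.51 in the pairs with Cryab. Without WT B and WT C, r in the 28 pairs was 0.85 to 0.99, and over these 6 libraries the pairs with Cryab reached r of 0.86 to 0.98, and 8 of 8 then passed. Without WT B and KO C, the 28 pairs kept r of 0.81 to 0.99 while the pairs with Cryab had r of -0.48 to 0.09. The relation of Cryab to the other members thus changed with the libraries left out. Among the other 8, r stayed at 0.80 or above in these settings, although only 24 of the 28 pairs passed without WT B and KO C. Centering each genotype on its own mean left r at 0.81 to 0.997 in the 28 pairs.

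Although the 8 genes varied together, their proportions differed between libraries. The ratios and shares here are of normalized counts, not per kb, and are read only between libraries. Relative to Crygs, Cryaa was the steadiest member, at 3.97 to 8.82 times the count of Crygs in the 8 libraries (SD of the log2 ratio 0.34, compared with 2.24 for the log2 level itself). Cryba1 lay at 0.75 to 1.79 times Crygs (SD of the log2 ratio 0.41). The ratio of Crybb3 to Crygs was the least steady, from 0.26 in KO C to 2.36 in KO B (SD of the log2 ratio 1.04), and that of Crybb1 ran from 0.53 in KO C to 3.74 in KO B.

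The same unevenness was seen in the share that Crybb1 and Crybb3 together took of the sum of the 8 genes. It was 5.85% in KO C (95% exact binomial interval 5.02 to 6.73) and 21.5% in WT B (19.8 to 23.3), the libraries with the highest sums. It was 43.3% in KO B (29.7 to 56.8) and 24.1% in WT A (15.6 to 33.9), the libraries with the lowest sums, which rested on 56 and 92 estimated reads of all 8 genes. The other 4 libraries lay between 10.1% and 13.1%. Crybb2 took 37.4% of the sum in WT C and 7.59% in KO B.

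**Figure D3:**
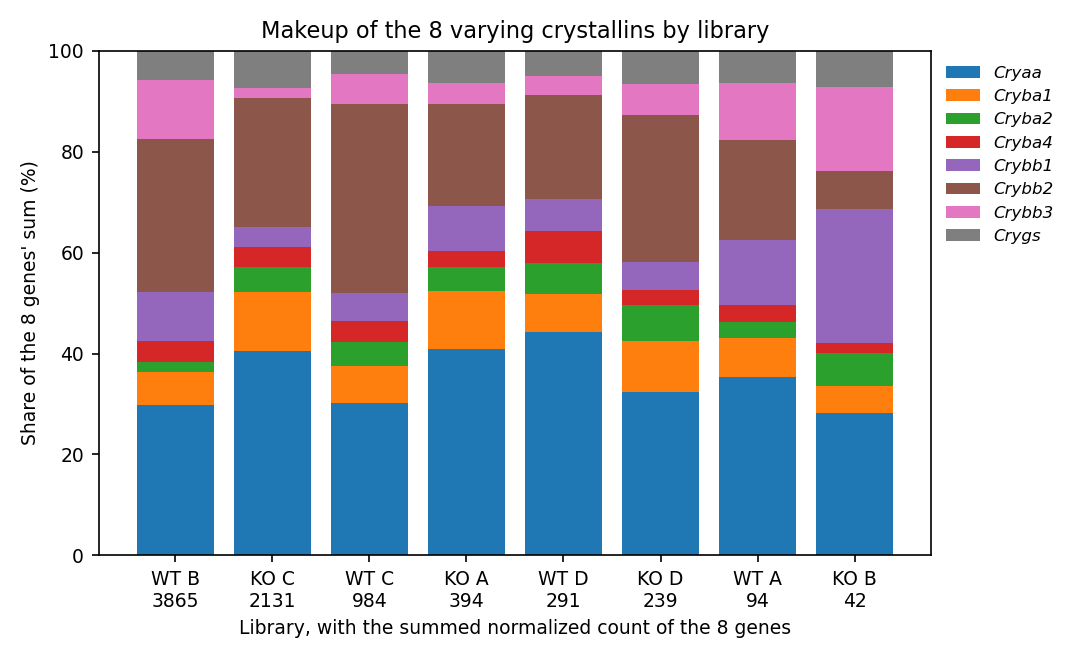
Share (%) of each of the 8 varying crystallin genes in their summed normalized count, 1 bar per library, ordered by that sum, which is printed under each bar. Crybb1 and Crybb3 together take 5.85% in KO C, 21.5% in WT B and 43.3% in KO B.

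WT B and KO C were compared directly because they held the most crystallin transcripts. The ratio of WT B to KO C was 0.79 for Cryba2, 0.998 for Cryba1, 1.33 for Cryaa and 1.43 for Crygs. It was 1.84 for Cryba4, 2.14 for Crybb2, 4.56 for Crybb1 and 10.9 for Crybb3. These are 2 single libraries of different genotypes, so the ratio compares the libraries and not the conditions. Only WT B of the 2 belonged to the libraries that stood apart in mitochondrial mRNA and in the noncoding RNA genes picked by name.

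Genes known as lens genes that are not members were read beside these values. Crygb and Crygc, further gamma-crystallins of lens fibers, were highest in the same libraries, with Crygb at 11.2, 190, 36.1 and 2.78 normalized counts in WT A to D and 11.2, 0, 121 and 4.70 in KO A to D. Crygc had 2.66, 167, 23.4 and 1.12 in WT A to D and 6.11, 0, 66.9 and 6.49 in KO A to D. Both were at 0 in KO B, where 3 reads would be 2.21 normalized counts, so that WT B was at least 86.1-fold higher for Crygb and at least 75.6-fold higher for Crygc. Summed, they lay at 3.90 to 357 in WT and 0 to 188 in the quadruple KO. The other 5 gamma-crystallins of the list (Cryga, Crygd, Cryge, Crygf and Crygn) had no row in the table used here.

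Of 14 lens fiber genes that are no crystallins, 4 had a row. Lgsn, a lens-enriched glutamine synthetase-like protein, had 8.36, 25.0, 13.97 and 3.38 normalized counts in WT A to D and 3.21, 0, 29.3 and 3.48 in KO A to D, with WT B, WT C and KO C again the high libraries. Bfsp1, which encodes filensin of the lens beaded filament, reached 73.0 in KO C and 31.0 in WT B, compared with 13.5 to 23.7 in the other 6 libraries. Hsf4 was highest in WT C (346) and WT B (275), compared with 178 to 221 in the other 6 libraries, and KO C was at 185. Tdrd7 did not follow, with 12656 to 15963 normalized counts. Defining lens fiber genes such as Mip, Lim2, Bfsp2, Grifin, Lenep, Lctl, Dnase2b and Birc7 had no row in the table used here. The share of lens tissue in the crystallin counts was not tested, and RNA carried over from lens and RNA made in the retina cannot be told apart in these libraries.

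By summed count, markers of other tissues and cells next to or within the retina ranged less than the 8 varying crystallins. The sum of the 4 measured lens fiber genes also ranged less, over 1.25-fold. The summed normalized count of 8 measured genes of the retinal pigment epithelium lay between 2227 and 6696 and was highest in WT D, while Rpe65 and Mlana of this list had no row. That of 7 genes of cornea and fibroblasts lay between 279 and 601, lowest in KO B and highest in WT B. Among 5 ciliary margin genes the sum was 2896 for WT B and 2605 for WT C, 1568 for KO C and 1299 to 1875 over the 6 libraries other than WT B and WT C. Rods, Mueller glia and retinal ganglion cells, with 8 genes each, ranged over 1.41-fold, 1.43-fold and 1.33-fold. Single genes were read on the scale of the normalized count plus 1. The widest on these lists were Krt15 (9.88-fold), Col9a3 (8.48-fold), Krt12 (6.85-fold) and Tyr (6.47-fold). On that scale the lens fiber genes ranged over 30.3-fold (Lgsn), 5.11-fold (Bfsp1), 1.94-fold (Hsf4) and 1.26-fold (Tdrd7).

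Measured regulators of crystallin genes varied less between libraries, with a sum that ranged over 1.31-fold. Of 12 lens transcription factors, 9 had a row, and Foxe3, Pitx3 and Sox1 had none. Pax6, the master regulator of eye development, lay between 5286 and 7358 normalized counts, Prox1 between 5570 and 9729, and Maf, the factor that binds the half-site marked in capitals, between 653 and 777. Over the 9 small heat shock and heat shock response genes with a row, the sum ranged over 1.28-fold. Hspb1, a small heat shock protein like Cryab, had 183 and 182 normalized counts in WT B and WT C and 72.1 to 101 in the other 6 libraries.

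The 10 non-members most like the mean standardized profile of the 9 genes were, by Pearson's r over the 8 libraries, Cdca2, Taf1b, Crygc, Rhoq, Rps6ka3, Zfp563, Crygb, Rpl10a-ps1, Slc12a8 and Fiz1, with r of 0.91 to 0.95. Apart from Crygb and Crygc, their libraries spanned only 1.10-fold to 2.66-fold on the scale of the normalized count plus 1. With Spearman's rho only 1 of the 10 was among the 10 most similar genes, so most of this list changed with the measure. Taken gene by gene, Cdca2 was the non-member most similar to Cryaa, Cryba1, Cryba2 and Cryba4 (r = 0.94 to 0.97), Crygc to Crygs (r = 0.96), Retsat to Crybb1 (r = 0.97), Cdc42ep2 to Crybb2 (r = 0.95), Wac to Crybb3 (r = 0.98) and Ssh1 to Cryab (r = 0.95). Among 298 tested genes with an SD within genotype of at least 1 on the log2 scale, which include the 8 varying members, 5 non-members had r of at least 0.8. These were Crygc, Crygb, Lgsn, Gm3020 and Lockd, by a limit chosen after the values were seen.

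The genotypes were then compared in the 9 genes with limma over all 17636 genes. Of the 9 crystallins, 0 were called at an adjusted p under 0.05, 0 had an unadjusted p under 0.05 and 0 had genotypes that did not overlap, while over all genes 0.437% were called (77 genes), 2922 genes had an unadjusted p under 0.05 and 9.74% did not overlap. By direction, 0 of the 9 were called lower and 0 higher in the quadruple KO, while 0.176% and 0.261% of all genes were. The mean log2 value was lower in the quadruple KO for 8 of the 9 genes, all but Cryab. The median log2 difference of the 9 genes was -0.86, compared with 0.00 (-0.00018) over all genes tested. The differences of the 8 genes are not separate observations, since they rest on the same high and low libraries.

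The log2 difference, quadruple KO minus WT, was closest to 0 for Cryba2 and farthest from 0 for Crybb3 among the 8 varying genes. For Cryba2 it was -0.27 ± 1.12 (SE, n = 4 libraries per genotype; limma adjusted p = 0.90), with means of 37.7 ± 35.5 (SD) for WT and 36.1 ± 47.0 (SD) for the quadruple KO. For Crybb3 it was -1.34 ± 1.09 (limma adjusted p = 0.47), with means of 133 ± 213 and 19.9 ± 14.9 normalized counts, with WT B at 450. Crybb2 had a difference of -1.33 ± 1.58 (limma adjusted p = 0.62) and Cryba4 of -1.24 ± 1.29 (limma adjusted p = 0.57). Cryaa and Crybb1 lay at -0.86 ± 1.33 and -0.86 ± 1.03, and Crygs and Cryba1 at -0.52 ± 1.25 and -0.47 ± 1.36.

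These intervals were wide. For Cryaa the 95% interval ran from -3.86 to 2.13 on the log2 scale, and for Crybb2 from -4.88 to 2.23, so that such differences in either direction lie within the error. Cryab had the only narrow interval, with a difference of 0.15 ± 0.13 (limma adjusted p = 0.50, 95% interval -0.15 to 0.45), and its means were 378 ± 38.7 (SD) normalized counts for WT and 422 ± 70.3 (SD) for the quadruple KO. By the exact permutation test on normalized counts, two-sided with 0.0286 as its smallest possible p, the 9 genes had p = 0.37 to 0.91.

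**Figure D4:**
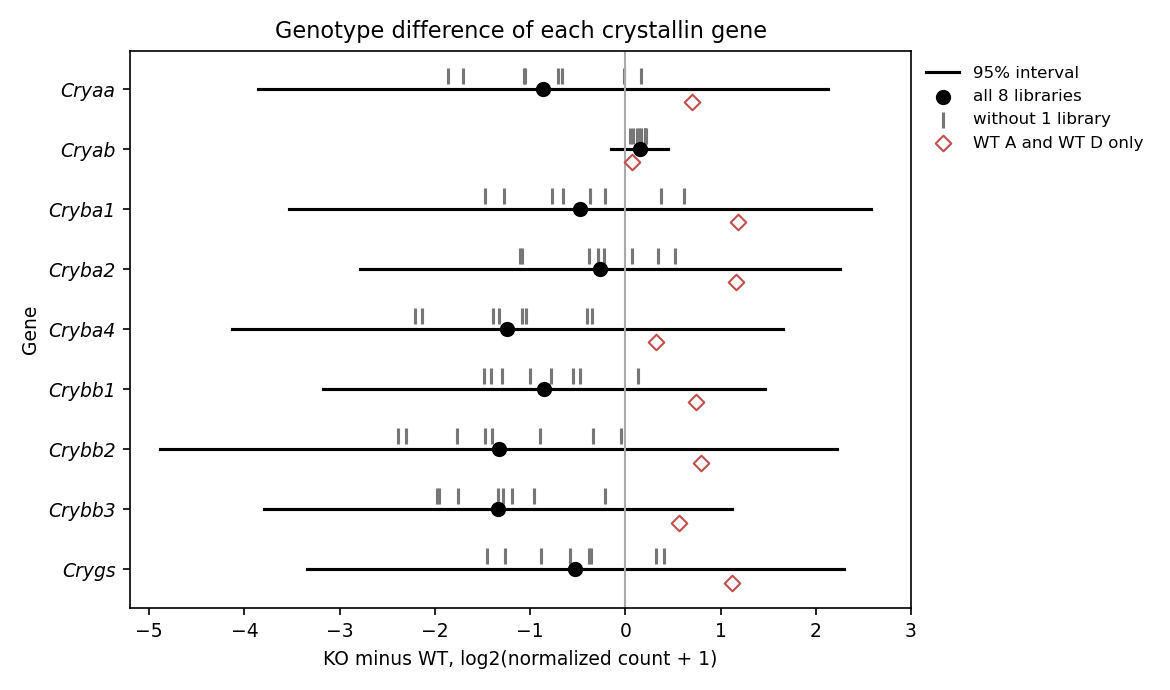
Difference between quadruple KO and WT of each crystallin gene in log2(normalized count + 1), with all 8 libraries (black points with 95% intervals), without each library in turn (gray ticks) and with only WT A and WT D kept on the WT side (open diamonds). All 9 intervals include 0, and the diamonds lie above 0 for all 9 genes.

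The direction depended on which libraries were counted. When only WT A and WT D were kept on the WT side, all 8 negative differences became positive, at 0.32 for Cryba4 to 1.18 for Cryba1, and 0 of 9 were called. Compared on the normalized scale, the quadruple KO mean of Cryaa was 0.69 times that of the 4 WT libraries and 3.44 times that of WT A and WT D. Leaving out WT B alone turned Cryba1, Cryba2, Crybb1 and Crygs positive, leaving out KO B alone turned Cryaa, Cryba1, Cryba2 and Crygs positive, and leaving out WT C turned Cryba2. Cryba4, Crybb2 and Crybb3 stayed negative in all 8 fits without 1 library, but their size changed. Cryba4 ran from -2.21 without KO C to -0.35 without KO B, Crybb2 from -2.39 without KO C to -0.04 without KO B, and Crybb3 from -1.98 without WT A to -0.22 without WT B. Cryab stayed positive, at 0.05 to 0.22.

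The spread within a genotype set the 8 genes apart from most of the table. The SD within genotype on the log2 scale was 1.79 for Crybb1 to 2.77 for Crybb2, compared with a median of 0.22 over all genes tested. Ranked from the widest of the 17636 genes, Crybb2 was at position 49 and Crybb1, the last of the 8, at 123, whereas Cryab with an SD of 0.20 was at 9690. Without WT B and WT C, the SD within genotype was 0.86 for Crybb3, 1.15 for Crybb1 and 1.87 (Cryba2) to 2.58 (Crybb2) for the other 6 varying genes. Genotype accounted for 0.64% (Cryba2) to 14.2% (Crybb3) of the variance between libraries in the 8 genes, and for 16.2% in Cryab. With 4 libraries per genotype, a split without any effect also takes part of the variance, so these shares do not measure an effect of genotype.

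**Figure D5:**
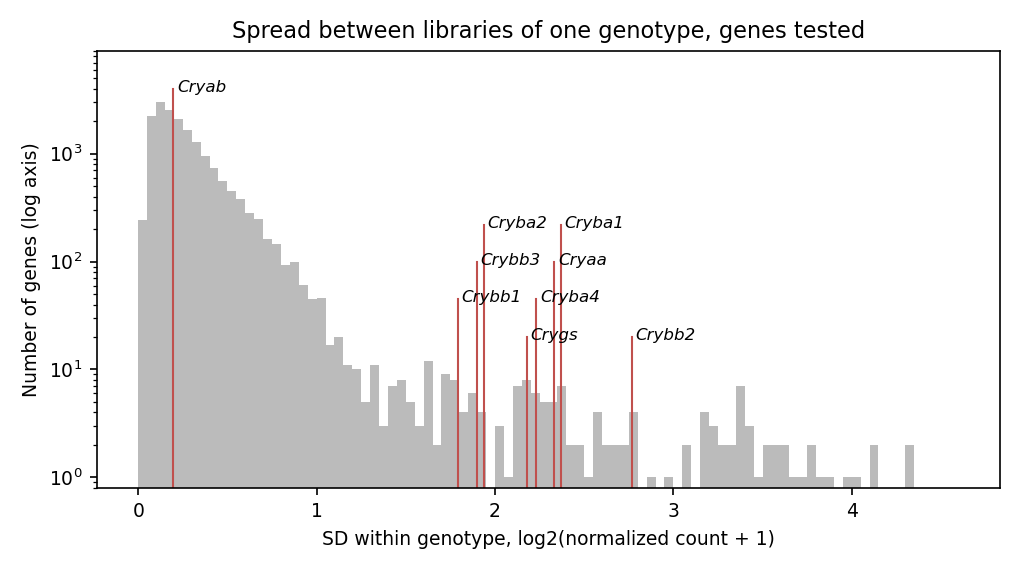
Number of genes (log axis) by SD within genotype of log2(normalized count + 1) for the 17636 genes tested, with red lines at the crystallin genes. Cryab at 0.20 lies among most genes, and the other 8 lie between 1.79 and 2.77, in the sparse right tail.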

How the data were processed

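Per the labels and the study's methods, the authors trimmed reads with Trim Galore 0.6.7, aligned them with STAR 2.7.9a to GRCm39, estimated counts with Salmon 1.5.2 and normalized them with DESeq2 1.32.0. The deposited table holds these normalized counts for 18058 genes, with the authors' fold changes and p-values, which were not used. Genes of a mean under 8.50 had no row.

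Members and gene lists were chosen with earlier results of these data known. The named genes were the members, the measured genes of the lists, and the non-members most like the members. Values were compared as log2(normalized count + 1) with limma 3.58.1 (R 4.3.3, eBayes with trend, no covariates), Benjamini-Hochberg adjustment over the 17636 genes that averaged 10 or more, exact permutation tests, Python 3.11.15 and scipy 1.17.1. The steps were tested on simulated data. Depth was estimated from the step of low values. Only 49.9% to 69.7% of low values lay within 0.1 of a whole step, so no count model was run, and reads and their intervals are estimates that cover counting error only. Alternatives were other normalizations, filters, pseudocounts, variance models, covariates, a replicate block and left-out libraries.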

Additional observations from a re-analysis of the deposited data

Results flagged for a closer look

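In 6 of the 18 combinations of gene and genotype, 1 library lay far from the other 3 of its genotype on the scale of normalized counts. Its gap to the nearest exceeded Dixon's critical value for 4 values. Chance flags about 5% of groups only where values are normally distributed, and the counts of most members were spread widely and unevenly. The gaps were not taken on the log2 scale of the limma fits, so the flags hold for untransformed counts only. In the quadruple KO the library was KO C for 4 genes, with 106 normalized counts of Cryba2, 83.8 of Cryba4, 546 of Crybb2 and 158 of Crygs. In WT it was WT B for 2 genes, with 380 normalized counts of Crybb1 and 450 of Crybb3. The flags are not independent, because the genes vary together over the same libraries. Crygb and Crygc, lens genes outside the 9, were also highest in WT B and next highest in KO C, and the part of lens RNA in these values was not tested.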

How the results depend on the processing

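No crystallin gene was called in any of the 20 alternatives, with 0 calls also over the fits without 1 library (0 to 0), and the smallest adjusted p of a member was 0.22 (limma, Crybb3 without WT D). With a minimum mean of 100 only 3 members were tested. Of 174 values of the log2 difference, 143 kept their sign and 31 changed it. The 143 include those of the replicate block, eBayes without trend, no filter on low values and the minimum mean of 100. These settings leave the difference itself unchanged, so its sign could not change there. With array weights the differences became 0.80 for Cryaa, 1.16 for Cryba1, 1.37 for Cryba2, 0.50 for Cryba4, 0.60 for Crybb1, 0.71 for Crybb2, 0.25 for Crybb3 and 1.05 for Crygs. When only WT A and WT D were kept on the WT side they were 0.70, 1.18, 1.16, 0.32, 0.74, 0.80, 0.57 and 1.12 in the same order. With the mean of the 4 lens fiber genes as a covariate, Cryba1 was at 0.41, Cryba2 at 0.42 and Crygs at 0.29, while Cryaa moved to -0.01, Cryba4 to -0.44, Crybb1 to -0.28, Crybb2 to -0.31 and Crybb3 to -0.76. With Crygb and Crygc as a covariate, chosen after the data were seen, the first 3 were at 0.41, 0.41 and 0.31 and the other 5 at -0.01, -0.44, -0.21, -0.30 and -0.66. Without WT B, Cryba1 was at 0.37, Cryba2 at 0.35, Crybb1 at 0.14 and Crygs at 0.41. Without KO B, Cryaa was at 0.17, Cryba1 at 0.62, Cryba2 at 0.52 and Crygs at 0.32, and without WT C Cryba2 was at 0.07. At the other end of the fits without 1 library, Cryaa reached -1.86, Cryba1 -1.47 and Crygs -1.46 without KO C, and Cryba2 -1.11 and Crybb1 -1.48 without WT A. The cause was not tested.

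Over all genes, 77 calls became 143 with array weights and 51 with the letter as a replicate block, and 56 to 89 without 1 library. Deviations of libraries with the same letter correlated over all genes tested with r of -0.11 (B) to 0.10 (C). Whether libraries with the same letter share a batch or another origin was not tested and cannot be read from these values. The number of correlated pairs stayed within 1.5 times of 28, with 24 to 36 pairs, but the pairs were not the same. The 36, without WT B and WT C, included the 8 pairs with Cryab, of which 0 were called over all libraries. Where 24 were called, all were among the 28 pairs without Cryab. Without WT B and KO C, an alternative chosen after the data were seen, the ratio of highest to lowest library moved beyond 1 SD for Cryab (1.34), Crybb1 (5.03), Crybb3 (8.49) and Crygs (15.4). It also fell, within 1 SD, to 25.3 for Cryaa, 32.8 for Cryba1, 16.8 for Cryba2, 50.5 for Cryba4 and 116 for Crybb2. In KO B and WT A the low read numbers limit every ratio of the 8 genes.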
